A study of Rattus norvegicus with 6 samples.

Results

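Glucose enters the cells of an artery through membrane transporters, is broken down by the glycolytic enzymes to pyruvate, and leaves as lactate or passes into the mitochondria. When oxygen is short, hypoxia-inducible factor (HIF) is no longer marked for destruction by prolyl hydroxylases, and it switches on many transporter and glycolytic genes together with other targets. Several steps have isoforms encoded by separate genes with different tissue distributions, so that the mix of isoforms differs between muscle, brain and blood cells. 37 genes of glucose transport, glycolysis and the hypoxia response, listed by name, were followed in rat cerebral arteries after subarachnoid haemorrhage (SAH), in which blood escapes beneath the membranes that cover the brain. Of these, 31 were measured among 18166 genes in all, each by 1 probe set (a group of array probes for the same transcript) that names that gene alone. For Tpi1, Eno1, Pkm and Bnip3 the probe set named several genes, and no probe set for Hk1 or Pgam1 was used here.

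The samples were cerebral arteries of male rats, 3 of them taken 6 hours after SAH (arrays 1, 4 and 5) and 3 from sham-operated rats (arrays 6, 7 and 8). Strain, age, the method of inducing SAH and the time after sham surgery were not stated in the labels. Nor do the labels say that each array is a separate animal, and the p-values then measure only differences among these samples, which may be technical. Each array gave an RMA log2 expression value per probe set, and array medians lay between 7.31 and 7.37. Smooth muscle markers were well represented: all 10 measured lay above the array median on all 6 arrays, as did all 9 endothelial and all 11 fibroblast markers. All differences are SAH minus sham on the log2 scale. A gene was called when its limma p, adjusted by Benjamini-Hochberg over all 36495 probe sets, was under 0.05.

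Of the 31 genes 1 fell, none rose and 30 did not pass. The gene that fell was Slc2a4, which encodes GLUT4, the insulin-responsive glucose transporter of muscle and fat. Over all genes 1.29% were called, 0.963% higher and 0.33% lower after SAH. At an unadjusted limma p under 0.05, 4 of the 31 were higher (12.9%, against 8.15% of all genes) and 8 were lower (25.8%, against 10.5% of all genes). The SAH values all lay above the sham values for 4 genes (12.9%, against 11.4% of all genes) and all below them for 9 (29.0%, against 15.4% of all genes). The median difference was -0.16 over the 31 genes and -0.013 over all genes, but it was -0.027 without sham array 8, -0.036 without SAH array 5 and -0.077 without SAH array 1. Differences ran in both directions and cancelled in the median: the median size of the difference, whatever its sign, was 0.34 over the 31 genes and 0.14 over all genes. Of the 31 genes 27 lay above the array median on every array, and the values over all genes were not matched to them for brightness. On SAH arrays 1, 4 and 5 the median of the 31 genes stood -0.067, -0.032 and -0.074 from the sham mean, and on sham arrays 6, 7 and 8 it stood at -0.0078, -0.081 and 0.050.

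**Figure D1:**
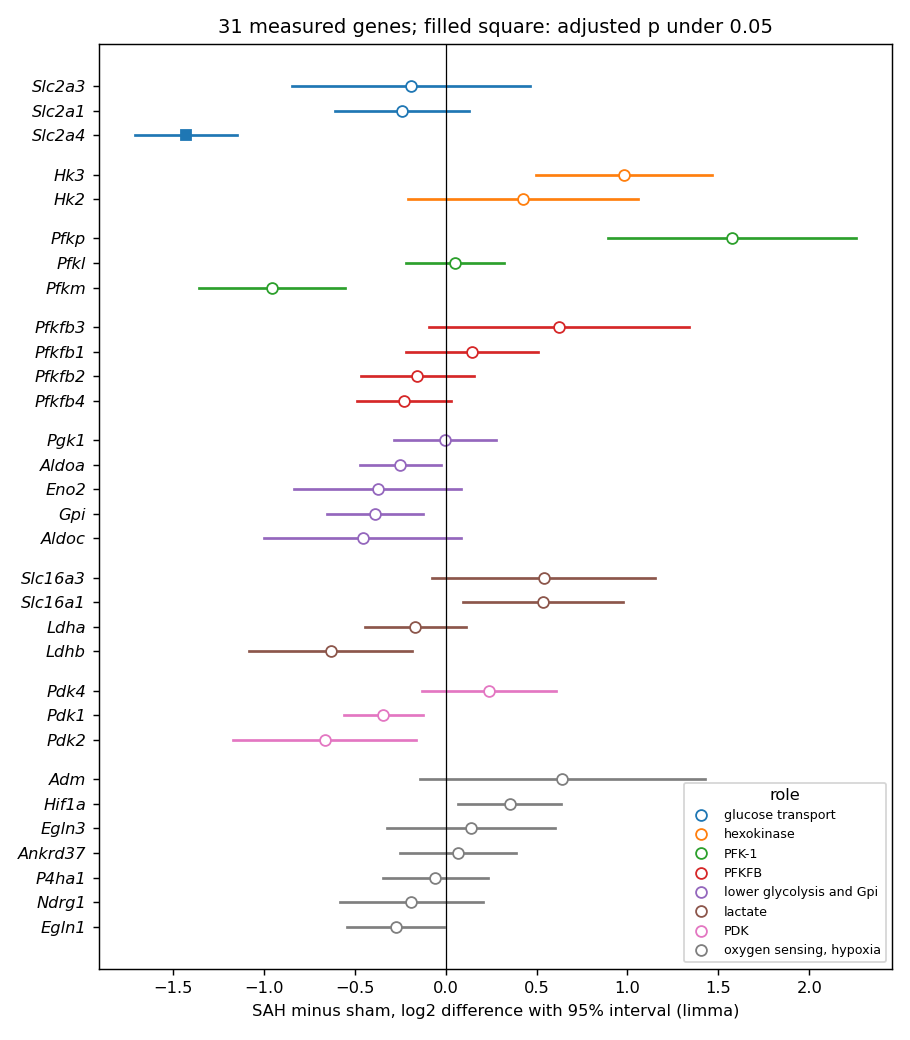
Difference between SAH and sham arrays for each of the 31 measured genes, grouped by role (x axis, SAH minus sham in log2 units, points with limma's 95% interval, n = 3 arrays each). The filled square marks Slc2a4, the 1 gene with an adjusted p under 0.05; Pfkp lies farthest to the right at 1.58 and Slc2a4 farthest to the left at -1.43.

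The genes for glucose transporters were examined first, as the step at which glucose enters the cell. Slc2a4 (probe set 17657978) read 7.89, 7.77 and 7.58 on SAH arrays 1, 4 and 5, against 9.26, 9.06 and 9.20 on sham arrays 6, 7 and 8. The groups were more than 1 log2 unit apart, and the gap was wider than the spread within either. The mean was 7.75 ± 0.16 in SAH and 9.17 ± 0.10 in sham arteries (SD, n = 3 each), a 2.69-fold fall (difference -1.43 ± 0.12, SE, with a 95% interval of -1.71 to -1.15; limma adjusted p = 0.00551). With each array left out the difference lay between -1.50 and -1.35, and the adjusted p stayed under 0.05 except without sham array 6 (0.0504). With the mean over 11 neutrophil markers as a covariate the difference was -1.39 and the adjusted p was 0.0571.

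The other transporter genes did not show such a separation. Slc2a1, which encodes GLUT1, the transporter of the blood-brain barrier endothelium, read 12.30, 12.17 and 12.30 on the SAH arrays and 12.45, 12.24 and 12.80 on the sham arrays. Slc2a3, which encodes GLUT3, the high-affinity transporter of neurons, read 8.91, 9.58 and 9.84 on the SAH arrays and 9.40, 9.46 and 10.04 on the sham arrays. For both genes the groups overlapped. The differences were -0.24 ± 0.16 for Slc2a1 (95% interval -0.61 to 0.13) and -0.19 ± 0.28 for Slc2a3 (95% interval -0.84 to 0.46), with limma adjusted p of 0.554 and 0.816. Slc2a3 changed sign without SAH array 1 (0.077) or without sham array 8 (0.015).

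An isoform contrast was taken within each array, as the log2 value of Slc2a4 minus the mean of Slc2a1 and Slc2a3. A level cannot be set against another probe set's level, but a constant offset of each probe set cancels in the shift of this contrast between groups. An understated difference of a dim or very bright probe set would not cancel. It stood at -2.71, -3.11 and -3.50 on the SAH arrays and at -1.67, -1.79 and -2.22 on the sham arrays, without overlap. The shift was -1.21, a 2.32-fold lower ratio of Slc2a4 to the other transporters, with an exact two-sided permutation p of 0.1. This is the smallest p that 3 against 3 arrays allow. The shift was -1.19 against Slc2a1 alone and -1.24 against Slc2a3 alone. The contrasts were chosen with earlier results of these data known, so that their p-values are not independent evidence.

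Glucose is then trapped by hexokinases. Hk3, the hexokinase of white blood cells, read 7.47, 8.01 and 8.29 on SAH arrays 1, 4 and 5, against 6.88, 7.02 and 6.93 on sham arrays 6, 7 and 8. All SAH values lay above all sham values, and all sham values lay below the median of their own array. The difference was 0.98 ± 0.20 (95% interval 0.50 to 1.47; limma adjusted p = 0.102). Hk2, the hexokinase of muscle and fat and a HIF target, read 10.16, 10.48 and 11.06 on the SAH arrays and 9.97, 9.91 and 10.55 on the sham arrays, with overlap (difference 0.43 ± 0.27; limma adjusted p = 0.536).

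Phosphofructokinase, which commits sugar to glycolysis, is a tetramer of muscle (Pfkm), liver (Pfkl) and platelet (Pfkp) subunits. The genes for the 3 subunits are shown by array beside the transporters in the plot of isoforms. Pfkp read 10.19, 11.22 and 11.26 on SAH arrays 1, 4 and 5, against 9.20, 9.25 and 9.50 on sham arrays 6, 7 and 8. Pfkm read 8.10, 8.21 and 7.86 on the SAH arrays, against 9.11, 8.70 and 9.23 on the sham arrays. Pfkl read 9.12, 9.12 and 9.16 on the SAH arrays and between 8.97 and 9.28 on the sham arrays. The SAH values were thus all higher for Pfkp, all lower for Pfkm and among the sham values for Pfkl.

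**Figure D2:**
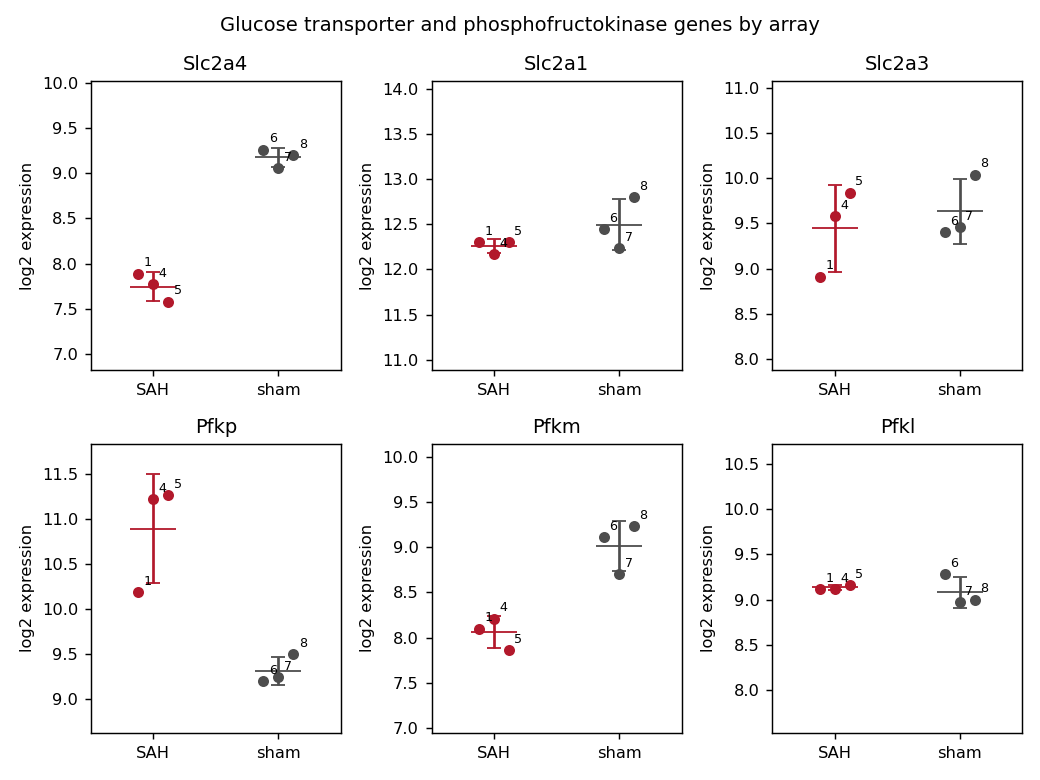
Log2 expression of 3 glucose transporter genes (top) and 3 phosphofructokinase genes (bottom) on each array (points, numbered by array), with group mean and SD (bars, n = 3), SAH left and sham right. Every panel spans the same number of log2 units; the groups are apart for Slc2a4, Pfkp and Pfkm and overlap for Slc2a1, Slc2a3 and Pfkl.

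Pfkp averaged 10.89 ± 0.61 in SAH and 9.32 ± 0.16 in sham arteries (SD, n = 3 each), a difference of 1.58 ± 0.29 (SE) with a limma adjusted p of 0.0759. Pfkm averaged 8.06 ± 0.18 in SAH and 9.01 ± 0.28 in sham arteries (n = 3 each), a difference of -0.95 ± 0.17 with a limma adjusted p of 0.0701. Neither passed the threshold, although the 95% intervals (0.89 to 2.26 and -1.35 to -0.55) lay off 0. Both passed when dim probe sets were left out before the fit (adjusted p = 0.0322 for Pfkp and 0.0283 for Pfkm), Pfkm with limma's trend and robust options (0.0494), and Pfkp with array weights (0.0330) and without SAH array 1 (0.00318), the SAH array with its lowest value. With any other array left out the adjusted p lay between 0.152 and 0.282 for Pfkp and between 0.101 and 0.276 for Pfkm, and with the neutrophil covariate it was 0.303 and 0.224. For Pfkl the difference was 0.053 ± 0.11 (95% interval -0.22 to 0.32; adjusted p = 0.885).

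The contrast of Pfkp with the mean of Pfkm and Pfkl stood at 1.58, 2.56 and 2.75 on the SAH arrays and at 0.0009, 0.42 and 0.38 on the sham arrays. It did not overlap between groups and was lowest among the SAH arrays on array 1. The shift was 2.03, a 4.08-fold higher ratio (exact two-sided permutation p = 0.1, again the smallest possible). It was 2.53 against Pfkm alone and 1.52 against Pfkl alone. All 6 contrasts computed over both families, which share genes, had the smallest possible exact permutation p of 0.1. The Benjamini-Hochberg adjusted p was therefore 0.1 each by arithmetic and adds nothing. With each array left out the shift ran between 1.80 and 2.39 for Pfkp and between -1.41 and -1.02 for Slc2a4.

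The 250 bases before the start of Pfkp, Pfkm and Ldha are given here because the differences of these subunit genes had opposite signs and Ldha is a textbook HIF target. The sequences are RefSeq's, on the GRCr8 build and on each gene's plus strand, at chr17:68639563-68639812 for Pfkp, chr7:131113849-131114098 for Pfkm and chr1:106507842-106508091 for Ldha. Capitals mark the HIF core motif, searched as ACGTG or GCGTG on both strands (CACGT and CACGC on the strand shown).
Pfkp: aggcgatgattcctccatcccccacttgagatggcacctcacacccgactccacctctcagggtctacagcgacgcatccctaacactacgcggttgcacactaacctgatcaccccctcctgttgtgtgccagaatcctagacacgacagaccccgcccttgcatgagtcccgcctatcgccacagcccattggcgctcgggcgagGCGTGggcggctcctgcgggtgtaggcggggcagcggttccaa
Pfkm: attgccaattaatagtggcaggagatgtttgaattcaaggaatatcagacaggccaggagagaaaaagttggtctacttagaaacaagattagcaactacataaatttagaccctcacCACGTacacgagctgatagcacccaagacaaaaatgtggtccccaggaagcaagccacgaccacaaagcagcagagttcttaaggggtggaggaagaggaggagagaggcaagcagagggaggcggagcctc
Ldha: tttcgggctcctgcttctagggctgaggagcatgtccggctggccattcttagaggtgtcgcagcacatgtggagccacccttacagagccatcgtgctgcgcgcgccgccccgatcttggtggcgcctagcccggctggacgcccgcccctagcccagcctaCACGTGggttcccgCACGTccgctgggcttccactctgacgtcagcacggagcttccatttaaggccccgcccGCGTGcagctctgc
The table held such a window for 27 of the 31 genes, not for Slc2a4, Slc2a3, Pgk1 or Ndrg1. The motif occurred in 17 of the 27 (63.0%) and in 36.7% of all 33469 windows in the table. The windows of the 27 genes were richer in G and C (median 62.0%, against 51.2% in all windows), and the motif's letters are mostly G and C. ACGTG alone occurred in 11 of the 27 (40.7%) and in 16.6% of all windows. Where 2 matches overlap they form CACGTG, which is also the binding motif of other factors, as in Ldha. Pfkp held 1 match (GCGTG), Pfkm 1 (CACGT) and Ldha 4. The median difference between SAH and sham arrays was -0.17 over the genes with a match and 0.14 over those without one. It was -0.17 and -0.0016 with and without ACGTG, given as a description. Hk2 and Egln3, both induced by HIF, had no match in these 250 bases, so the split does not part HIF targets from other genes.

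The PFKFB enzymes make and remove the sugar phosphate that activates phosphofructokinase, and Pfkfb3 encodes the inducible form. Pfkfb3 read 10.36, 11.48 and 11.38 on SAH arrays 1, 4 and 5, and 10.33, 10.30 and 10.71 on sham arrays 6, 7 and 8. SAH arrays 4 and 5 lay above every sham array and SAH array 1 among them, so that the difference of 0.62 ± 0.30 had an adjusted p of 0.412 with all arrays. Without SAH array 1, 5 of the 31 genes were called, namely Pfkfb3, Pfkp and Hk3 as higher and Slc2a4 and Pdk2 as lower. In the same fit 670 of all 18166 genes were called, against 235 with all arrays. Pfkfb4 read 8.38, 8.17 and 8.09 on the SAH arrays and 8.46, 8.45 and 8.42 on the sham arrays, which did not overlap (difference -0.23 ± 0.11; limma adjusted p = 0.402). Pfkfb1 and Pfkfb2 overlapped, with differences of 0.15 and -0.16.

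All 5 measured genes for the remaining glycolytic enzymes had differences below 0, between -0.46 and -0.0024, and none passed. Gpi, which encodes glucose phosphate isomerase, read 11.63, 11.53 and 11.36 on SAH arrays and 11.95, 11.78 and 11.95 on sham arrays (difference -0.39 ± 0.11; limma adjusted p = 0.192). Aldoa, muscle-type aldolase, read 10.47, 10.56 and 10.53 on SAH arrays and 10.83, 10.68 and 10.79 on sham arrays (difference -0.25 ± 0.09; limma adjusted p = 0.293). For both genes all SAH values were below all sham values. Aldoc, brain-type aldolase, and Eno2, the neuronal enolase, differed by -0.46 and -0.37 with overlap. Pgk1, which encodes phosphoglycerate kinase and is a common reporter of HIF, differed by -0.0024 (95% interval -0.28 to 0.28).

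Of the enzymes that interconvert pyruvate and lactate, the heart-type gene Ldhb read 10.82, 10.72 and 10.17 on SAH arrays and 11.34, 11.02 and 11.25 on sham arrays. The muscle-type gene Ldha, a HIF target, read 9.96, 10.16 and 10.29 on SAH arrays and 10.23, 10.39 and 10.29 on sham arrays. The SAH values were all lower for Ldhb (difference -0.63 ± 0.19; limma adjusted p = 0.204) and overlapped with sham for Ldha (difference -0.17 ± 0.12, 95% interval -0.45 to 0.11; adjusted p = 0.590).
Slc16a1, which encodes the monocarboxylate transporter MCT1, read 9.60, 9.59 and 9.65 on SAH arrays and 8.65, 9.23 and 9.35 on sham arrays. All SAH values were higher, and the spread lay mostly in the sham group (difference 0.54 ± 0.19; limma adjusted p = 0.257). Slc16a3, which encodes the lactate exporter MCT4, differed by 0.54 ± 0.26 with overlap (adjusted p = 0.408).

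The pyruvate dehydrogenase kinases restrain the entry of pyruvate into the citrate cycle. Pdk1, a HIF target, read 7.91, 7.92 and 7.83 on SAH arrays and 8.28, 8.23 and 8.18 on sham arrays. Pdk2 read 9.77, 9.22 and 8.92 on SAH arrays and 10.09, 9.88 and 9.92 on sham arrays. Both were lower on all SAH arrays than on any sham array, with differences of -0.34 ± 0.09 and -0.66 ± 0.21 (limma adjusted p = 0.166 and 0.227). Pdk4, induced by fasting in muscle, differed by 0.24 ± 0.16 with overlap (adjusted p = 0.561). Pdk3, the remaining kinase of this family and not among the 37 genes, rose 2.05-fold: it read 10.07, 10.21 and 10.08 on SAH arrays, against 9.23, 8.88 and 9.15 on sham arrays (difference 1.04 ± 0.12; limma adjusted p = 0.0214). The call of Pdk3 ended with the neutrophil covariate (0.123) and without SAH array 4 (0.110), SAH array 5 (0.0891), sham array 6 (0.0850), sham array 7 (0.0884) or sham array 8 (0.0703), where its difference lay between 0.93 and 1.11.

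None of the 7 measured genes for oxygen sensing and for hypoxia targets outside glycolysis passed, with 4 differences above 0 and 3 below. Hif1a, the regulated subunit of HIF, read 12.50, 12.51 and 12.82 on SAH arrays and 12.19, 12.28 and 12.30 on sham arrays. Egln1, which encodes the main prolyl hydroxylase that marks HIF for destruction, read 9.43, 9.60 and 9.55 on SAH arrays and 9.95, 9.79 and 9.67 on sham arrays. Hif1a was higher and Egln1 lower on all SAH arrays, by 0.35 ± 0.12 and -0.28 ± 0.11 (limma adjusted p = 0.248 and 0.328). HIF is controlled mainly through the stability of its protein, which arrays do not measure.
The other 5 genes of this group overlapped between SAH and sham arrays. Egln3, a prolyl hydroxylase gene that HIF itself induces, differed by 0.14 (95% interval -0.32 to 0.60), and Ankrd37, a HIF target, by 0.069 (95% interval -0.25 to 0.39). Ankrd37 was above the array median on 1 array only. The collagen prolyl hydroxylase gene P4ha1 differed by -0.056 (95% interval -0.34 to 0.23) and Ndrg1, a stress-responsive gene, by -0.19 (95% interval -0.58 to 0.21). Adm, which encodes the vasodilator peptide adrenomedullin, read 9.96, 10.60 and 10.10 on SAH arrays and 9.30, 9.12 and 10.32 on sham arrays. Sham array 8 lay among the SAH arrays, and the difference of 0.64 ± 0.33 had an adjusted p of 0.440.

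**Figure D3:**
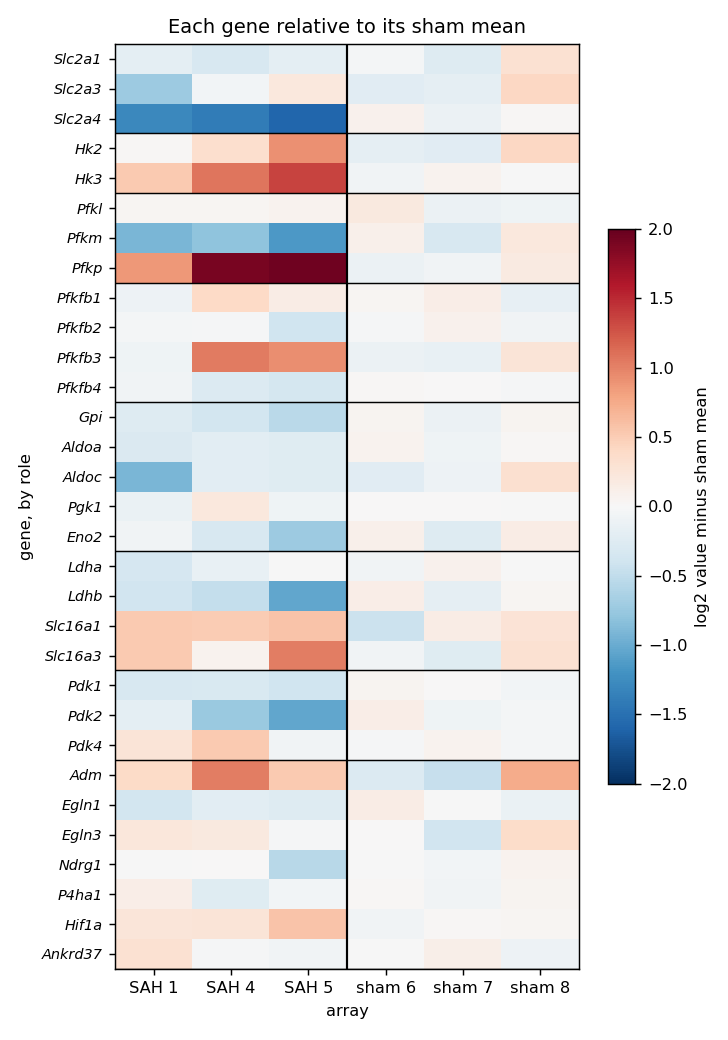
Log2 value of each of the 31 genes on each array minus that gene's sham mean (colour, red above and blue below), with SAH arrays left and sham arrays right and lines between roles. Slc2a4 and Pfkm are blue on all 3 SAH arrays and Pfkp and Hk3 red. On sham array 8 Pfkfb3 and Adm are red, as Adm is on all 3 SAH arrays and Pfkfb3 on SAH arrays 4 and 5.

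Further genes of the same pathways were taken from 9 lists, of whose 127 genes 112 were measured. Pdk3 rose, none fell and the rest did not pass, so that the 1 call among 112 genes was near the 1.29% called over all genes. The list with the lowest median was that of glycogen storage and breakdown, where 12 of 13 differences were below 0 (median -0.33) and 7 had SAH values all below the sham values, against 15.4% of all genes. None was called, and 7 were lower at an unadjusted p under 0.05, against 10.5% of all genes. Pygm, muscle glycogen phosphorylase, read 10.18, 10.03 and 9.64 on SAH arrays and 10.99, 10.67 and 11.04 on sham arrays (difference -0.95 ± 0.17; limma adjusted p = 0.0760). Phkg1, the muscle catalytic subunit of phosphorylase kinase, read 6.92, 6.95 and 6.95 on SAH arrays and 7.39, 7.71 and 7.59 on sham arrays (difference -0.62 ± 0.11; limma adjusted p = 0.0717). All SAH values of Phkg1 lay below the median of their own array. Pygm passed when dim probe sets were left out (adjusted p = 0.0316) and without SAH array 1 (0.0447). Gyg1, the glycogen primer protein glycogenin, and Pgm1, phosphoglucomutase, differed by -0.48 ± 0.09 and -0.69 ± 0.13 (adjusted p = 0.0805 and 0.0811). These last 2 genes were picked after their values were seen.

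Among 10 other glucose transporters Slc2a13, a proton-coupled inositol transporter, differed by -0.66 ± 0.15 and Slc2a6 by 0.49 ± 0.19 (limma adjusted p = 0.118 and 0.298; list median -0.048). In the GLUT4 vesicle and insulin signalling list (13 measured, 10 below 0, median -0.17) Sort1, which encodes the sorting receptor sortilin, differed by -0.46 ± 0.10 and the kinase gene Akt1 by -0.31 ± 0.10 (adjusted p = 0.118 and 0.210). Of 12 transcription factors and kinases acting on Slc2a4 (median 0.095), Foxo1 differed by -0.42 ± 0.10 and Mef2c, a muscle transcription factor, by -0.45 ± 0.12 (adjusted p = 0.124 and 0.174). Foxo1 had 2 probe sets, and their mean differed by only -0.28 (limma adjusted p = 0.305). In the pentose phosphate pathway (7 measured, median -0.090) Rpe, ribulose phosphate epimerase, differed by 0.84 ± 0.20 and H6pd, the glucose dehydrogenase of the endoplasmic reticulum, by 0.63 ± 0.16 (adjusted p = 0.142 and 0.153). From each list the genes with the smallest p are given, and no gene of these 4 lists was called.

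Of 11 genes for oxygen sensing and HIF subunits (median -0.019) Arnt2, a partner subunit of HIF that is prominent in neurons, differed by -1.02 ± 0.23 and Vhl, the ubiquitin ligase that removes HIF, by 0.46 ± 0.13 (limma adjusted p = 0.123 and 0.191). Of 26 other hypoxia targets 14 were above 0 and 12 below (median 0.065). The SAH values lay all above the sham values for 4, against 11.4% of all genes, and all below for 2, against 15.4% of all genes. Vegfa, the angiogenic growth factor and a HIF target, read 10.23, 10.27 and 10.38 on SAH arrays and 9.94, 9.31 and 9.93 on sham arrays (difference 0.57 ± 0.18; limma adjusted p = 0.234). Vegfa was picked after its values were seen. Bnip3l, a mitophagy receptor gene, differed by -0.62 ± 0.14 and Lox, which cross-links collagen, by 0.34 ± 0.11 (adjusted p = 0.129 and 0.219). The 7 other glycolytic enzymes (median -0.081) held Eno3 at -0.18 and Pgam2 at 0.21, both with overlap. In the list with Pdk3 (13 measured, median -0.057), Ldhd and the lactate transporter gene Slc16a7 differed by -0.27 and -0.36.

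**Figure D4:**
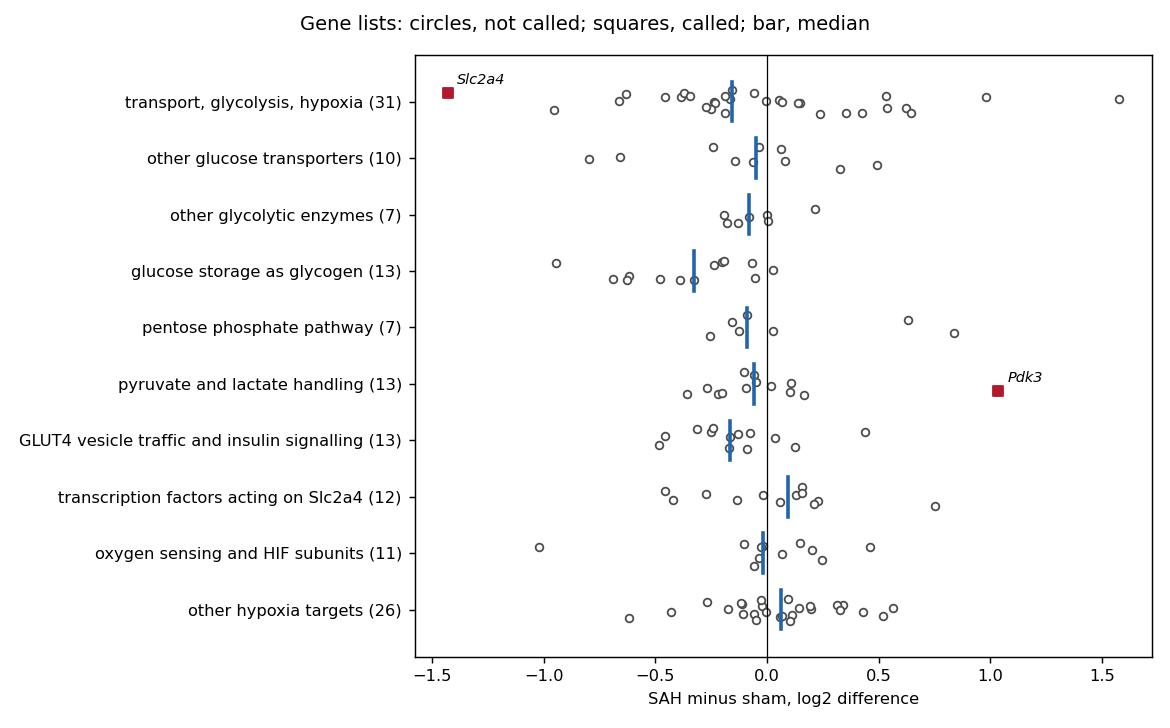
Log2 difference, SAH minus sham, of every measured gene (points) in the 31-gene list and in 9 further lists, with the number measured in brackets and the median of each list as a bar. Slc2a4 and Pdk3 are the 2 called genes, and the glycogen list has the lowest median at -0.33.

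Markers of other cell types were set beside these genes on each array. The mean over 11 neutrophil markers was 9.35, 9.39 and 10.39 on SAH arrays 1, 4 and 5 and 7.61, 7.89 and 10.01 on sham arrays 6, 7 and 8, so that sham array 8 resembled the SAH arrays. On sham array 8 Hk3 read 6.93, Pfkp 9.50 and Slc2a4 9.20, while Pfkp, Pfkfb3, Pfkm, Hk2, Slc2a3 and Adm had their highest sham value on it. So did Slc2a1, Aldoc, Eno2, Slc16a1, Slc16a3, Egln3, Ndrg1, P4ha1 and Hif1a. Gpi read 11.95 on both sham arrays 6 and 8, and the remaining genes of the 31 were highest on another sham array. SAH array 1, with a lower neutrophil mean than sham array 8, read 7.47 for Hk3, 10.19 for Pfkp and 7.89 for Slc2a4. None of the 11 markers was called, and their median difference was 1.46. With the neutrophil mean as a covariate none of the 31 genes and 24 of all genes passed, and the isoform shifts were -0.87 for Slc2a4 and 1.79 for Pfkp. The neutrophil mean was itself higher on every SAH array than on sham arrays 6 and 7, so this fit does not fully separate neutrophil content from SAH. The part of neutrophil content in these results was not tested beyond this fit.

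The mean over 10 smooth muscle markers was 11.61, 11.66 and 11.61 on SAH arrays and 11.99, 12.01 and 11.83 on sham arrays, lower on every SAH array. Of these markers 1 fell (Smtn), none rose and 9 did not pass, and the median difference was -0.23. The part of smooth muscle content in the lower values of Slc2a4, Pfkm and Pygm was not tested, and in bulk tissue fewer cells of a type and less RNA per cell cannot be told apart. Skeletal muscle and fat also use Slc2a4. The mean over 8 skeletal muscle markers lay between 7.67 and 7.82 on SAH arrays and between 7.74 and 7.77 on sham arrays, and that over 12 adipocyte markers between 7.53 and 7.61 and between 7.56 and 7.59. None of these was called, the median differences were 0.0029 and 0.043, and 4 markers of each list lay above the array median on all arrays.

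The remaining marker lists held no called gene. The 15 monocyte and macrophage markers went both ways, 7 above 0 and 8 below (median -0.39). Among them Ccr2, a receptor of recruited monocytes, and Ptprc, the pan-leukocyte CD45, differed by 1.86 and 0.93 without overlap, and the resident macrophage markers Cd163 and Mrc1 by -1.29 and -1.24 with overlap (limma adjusted p between 0.196 and 0.250). These 4 were picked after their values were seen. Sham array 8 read 9.82 for Ccr2 and 9.65 for Ptprc, close to their lowest SAH values of 9.94 and 9.71. The median difference was -0.15 over 9 endothelial markers, which also went both ways (3 above 0 and 6 below). It was -0.16 over 11 leptomeningeal and adventitial fibroblast markers, all below 0. It was -0.13 over 11 neuron and astrocyte markers (5 above 0 and 6 below) and 0.21 over 4 erythroid markers (3 above 0 and 1 below). None of the erythroid markers lay above the array median on all arrays. The mean over the macrophage markers was 9.59, 9.69 and 9.54 on SAH arrays and 9.56, 9.36 and 10.05 on sham arrays, highest on sham array 8.

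**Figure D5:**
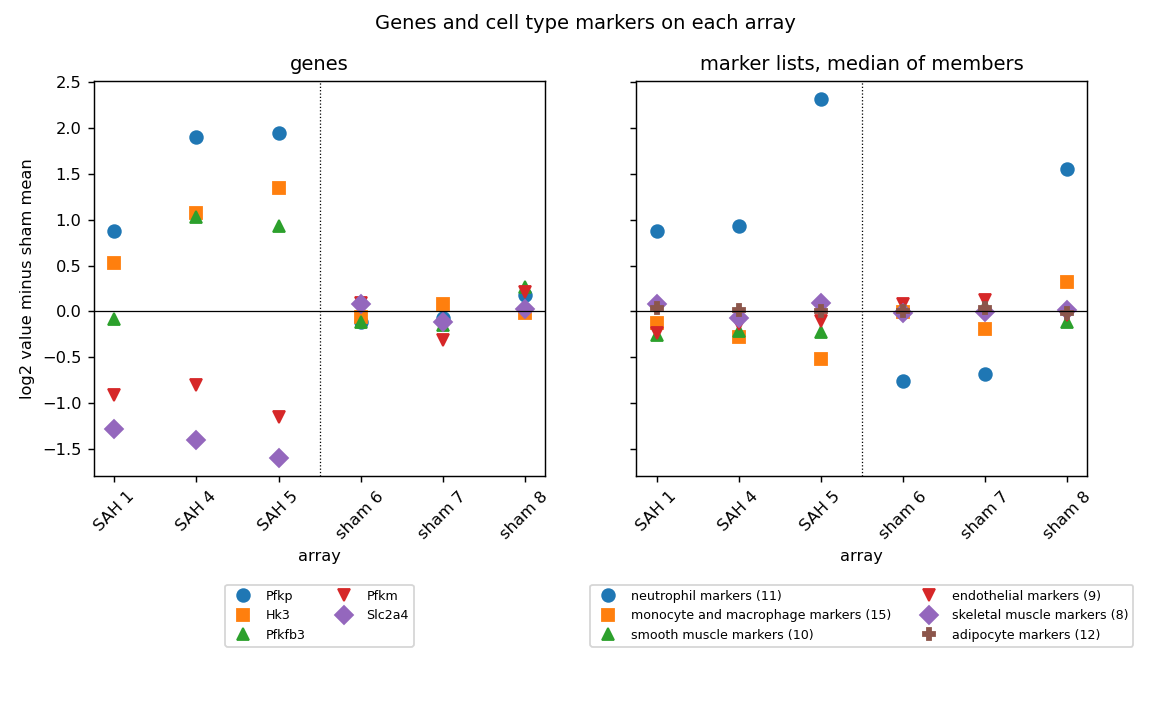
Left, log2 value minus sham mean on each array for Pfkp, Hk3, Pfkfb3, Pfkm and Slc2a4; right, the median of the same quantity over each cell type marker list (number measured in brackets), with SAH arrays left of the dotted line and sham arrays right of it. Neutrophil markers are high on sham array 8 (1.55) as well as on the SAH arrays (0.87 to 2.31), where Pfkp, Pfkfb3 and Pfkm have their highest sham value and Slc2a4 and Hk3 lie near the sham mean.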

How the data were processed

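Expression was measured on 6 Affymetrix rat arrays, 3 SAH and 3 sham, each with cRNA from 6 µg of total RNA. The authors' deposited log2 values came from Affymetrix Expression Console 1.1.2 and RMA, per the submitters' processing notes. Further settings and the genome build are not given in those notes. RMA makes the distributions of the arrays alike, so a general change in RNA amount cannot be seen, and it can understate differences of dim and very bright genes.

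The fit used 36495 of 36685 probe sets, leaving out 190 controls. The platform annotation in GEO, updated through RefSeq (GRCr8), gave 1 gene for 18511, several for 575 and no name here for 17409. Each gene was represented by its probe set with the highest mean over all arrays. The fit was limma 3.58.1 in R 4.3.3 (lmFit, eBayes, two-sided, no covariate), adjusted by Benjamini-Hochberg over all probe sets. It and the exact permutation test were tested on simulated data.

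The genes and lists were chosen with earlier results of these data known. Values on every array were to be given for called genes, the 6 isoform genes and the 10 further genes with the smallest p, and from each further list for called genes and up to 2 others by p. Array values of Hk2, Pfkfb3, Ldha and Adm were added after they were seen. Promoters were searched in RefSeq windows of the table supplied. Alternatives were dropping dim probe sets (kept: over their array's median on 3 or more arrays), repeated quantile normalization, median subtraction, array weights, eBayes' trend and robust options, each array left out, an adjusted p under 0.10, the mean of a gene's probe sets, and a neutrophil covariate. The number of arrays limits the precision.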

Additional observations from a re-analysis of the deposited data

How the results depend on the processing

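The count of genes called lower was 1 (Slc2a4) and that of genes called higher 0. With dim probe sets left out the counts were 2 lower and 2 higher, of which Hk3 passed that filter on the SAH arrays alone, at an adjusted p under 0.10 they were 2 and 1, with the trend and robust options 2 were lower, with array weights 1 was higher, and with the neutrophil covariate 0 were lower. With an array left out the lower count ran between 0 and 2 and the higher count between 0 and 3. Over all genes 235 were called, 672 with dim probe sets left out, 530 at an adjusted p under 0.10 and 363 with the trend and robust options. With array weights 373 of all genes were called, with the neutrophil covariate 24, and with an array left out between 29 and 670. The median difference was -0.073 with array weights and -0.089 with the neutrophil covariate, and between -0.18 and -0.027 with an array left out, against -0.16 with all arrays. Slc2a3 changed sign without SAH array 1 (0.077) and sham array 8 (0.015), as did Pfkl without sham array 7 (-0.0033). With an array left out Slc2a3 ran between -0.39 and 0.077 and Pfkl between -0.0033 and 0.15. The isoform shifts of Slc2a4 and Pfkp kept their direction under every alternative run. Median subtraction cancels in a contrast within an array, and each of these genes has 1 probe set. Neither median subtraction nor the mean of a gene's probe sets could therefore change the shifts. Of 489 values of 35 named genes under 14 alternatives, 458 kept direction and side of the threshold, 8 lost the call, 20 gained one and 3 changed sign. The cause of these changes was not tested. Differences could not change under the dim filter, the trend and robust options or the 0.10 threshold. The mean of a gene's probe sets changed only the difference of Foxo1 among the named genes. Most named genes were not called with all arrays, so the 458 are a weak measure of stability. Leaving out dim probe sets also leaves fewer probe sets to adjust over. No paired analysis was done because the labels give no pairing of SAH with sham arrays. Probe sets near background, such as those of Ankrd37 and Pfkfb1, limit what can be seen for those genes.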
